A study of Mus musculus with 2 samples.

Results

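Hox genes encode homeodomain transcription factors that sit in 4 genomic clusters in the mouse, and this account describes those of hindlimb muscle after denervation. They were taken as every non-control probe on the array whose gene name begins with Hoxa, Hoxb, Hoxc or Hoxd and a number. This gave 38 Hox genes, represented by 50 probes, among 21895 gene symbols and 41169 probes usable on both arrays. Of the 39 protein-coding Hox genes in RefSeq, Hoxc11 is not analysed here. The Hoxa cluster on chromosome 6 held 11 of the genes, Hoxb on chromosome 11 held 10, Hoxc on chromosome 15 held 8 and Hoxd on chromosome 2 held 9.

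The genes of each cluster lie in the order of their paralogue numbers, and genes with the same number in different clusters descend from one ancestral gene. In the embryo, low numbers are used toward the head and high numbers toward the tail and the tip of the limb. Cells of adult limbs, connective tissue and muscle among them, retain part of this positional pattern, and Polycomb and trithorax proteins are known to keep Hox genes silent or active.

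The muscle was the gastrocnemius, a calf muscle of the hindlimb, of male C57BL/6 mice aged 7 weeks at the start and 9 weeks at sampling. RNA from 6 mice was pooled for the denervated group, sampled 14 days after denervation, and RNA from 6 mice was pooled for the control group, which its title also calls sham. Each pool was hybridised to 1 Agilent array with Cy3 as the only dye. No group had a replicate array, so no test could be made, and every difference below describes these pools. Each pool mixes whole-muscle RNA, in which fewer cells of a type and less RNA per cell cannot be told apart.

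Control and denervated signals are given as the scanner software's processed signal, in arbitrary units and before scaling between arrays. A log2 difference is denervated minus control after each array was divided by its 75th percentile signal, 788 for control and 1063 for denervated muscle. Equal signals on both arrays therefore correspond to a log2 difference of -0.43. The error after ± combines the spot errors that the scanner software reports for the 2 arrays and covers technical error only. A gene counted as measured when the same probe was unsaturated and well above background in both pools. Signals are compared between pools for one probe, never between genes.

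On this array, the muscle markers matched the labelled tissue, while the limb markers were dim. All 8 muscle fibre markers were measured, with signals summing to 2276940 for control and 2324820 for denervated muscle. Pitx1, a hindlimb identity factor, was measured with signals of 69.8 (control) and 67.4 (denervated). Tbx4, another hindlimb factor, had signals of 31.8 and 40.2. Tbx5, its forelimb counterpart, had 17.5 and 13.6 and was not well above background on either array. With signals this dim, and none compared between genes, these factors do not establish limb identity.

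Within the Hoxa cluster, Hoxa10 and Hoxa11 were lower in the denervated pool, whereas their neighbours Hoxa9 and Hoxa7 had differences close to 0. Their promoters are shown because the largest contrast between neighbouring Hox genes measured in both pools lay there. Each window is RefSeq sequence of build GRCm38.p6 on the minus strand, from 250 bases before to 50 bases after an annotated start, with every CG in capitals. RefSeq gives Hoxa10 2 starts, and both are printed.
Hoxa11 (GRCm38.p6 chr6:52245761-52246060, minus strand): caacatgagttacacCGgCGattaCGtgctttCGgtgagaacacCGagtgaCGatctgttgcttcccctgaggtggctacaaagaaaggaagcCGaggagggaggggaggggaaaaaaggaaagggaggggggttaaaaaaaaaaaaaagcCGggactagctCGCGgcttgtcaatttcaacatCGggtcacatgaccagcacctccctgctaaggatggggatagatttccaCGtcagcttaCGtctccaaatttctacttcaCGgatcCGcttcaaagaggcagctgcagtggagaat
Hoxa10, first window (GRCm38.p6 chr6:52234890-52235189, minus strand): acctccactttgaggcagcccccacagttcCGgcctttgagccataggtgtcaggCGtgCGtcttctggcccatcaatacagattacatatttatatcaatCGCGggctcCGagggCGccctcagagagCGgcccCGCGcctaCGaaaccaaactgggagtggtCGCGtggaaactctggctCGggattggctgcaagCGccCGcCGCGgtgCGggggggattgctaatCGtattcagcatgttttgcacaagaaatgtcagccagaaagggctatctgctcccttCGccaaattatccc
Hoxa10, second window (GRCm38.p6 chr6:52240805-52241104, minus strand): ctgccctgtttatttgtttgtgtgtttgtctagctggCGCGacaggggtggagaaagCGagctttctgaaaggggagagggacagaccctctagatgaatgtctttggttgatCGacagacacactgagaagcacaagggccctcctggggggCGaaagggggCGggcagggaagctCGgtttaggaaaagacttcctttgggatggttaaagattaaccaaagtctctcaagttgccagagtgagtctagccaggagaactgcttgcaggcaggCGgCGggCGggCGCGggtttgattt
Hoxa9 (GRCm38.p6 chr6:52227321-52227620, minus strand): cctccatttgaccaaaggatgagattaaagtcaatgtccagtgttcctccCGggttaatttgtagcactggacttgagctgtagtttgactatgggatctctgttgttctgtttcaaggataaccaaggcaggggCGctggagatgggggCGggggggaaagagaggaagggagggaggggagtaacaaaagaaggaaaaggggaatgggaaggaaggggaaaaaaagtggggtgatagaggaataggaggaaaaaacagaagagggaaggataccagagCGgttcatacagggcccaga
The Hoxa11 window held 15 CG pairs, the Hoxa10 windows held 21 and 12, and the Hoxa9 window held 4. The Hoxa7 window, not printed, held 9. The median was 14.5 over 24 windows of 22 Hox genes and 7 over 32851 windows of all genes, so the Hoxa9 window lay below both. Motifs were read on both strands. The E-box CANNTG occurred at 2 places in the Hoxa11 window and 1 in the Hoxa9 window, with none in the Hoxa10 and Hoxa7 windows, and 72.3% of all windows held one. The TATAAA motif occurred in the first Hoxa10 window, on the strand opposite to the one printed (as TTTATA in the printed letters), and in 13.6% of all windows. CCAAT occurred in the same Hoxa10 window, again on the opposite strand (printed as ATTGG), in 62.5% of the Hox windows and in 37.4% of all windows. These matches describe letters only.

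Of the 38 Hox genes, 29 (76.3%) were measured on both arrays, beside 71.2% of all genes. Detection was complete in the Hoxa cluster, with 11 of 11 genes measured, and reached 7 of 10 in Hoxb, 6 of 8 in Hoxc and 5 of 9 in Hoxd. By paralogue number, 9 of 12 genes of groups 1 to 4 were measured, 10 of 11 of groups 5 to 8, and 10 of 15 of groups 9 to 13. Hoxb1, Hoxc12, Hoxc13, Hoxd1, Hoxd3, Hoxd11 and Hoxd13 were not well above background on either array. Of the 4 paralogues of group 13, which act at the posterior end of the body and, in Hoxa13 and Hoxd13, in the hand and foot, only Hoxa13 was measured in both pools.

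**Figure D1:**
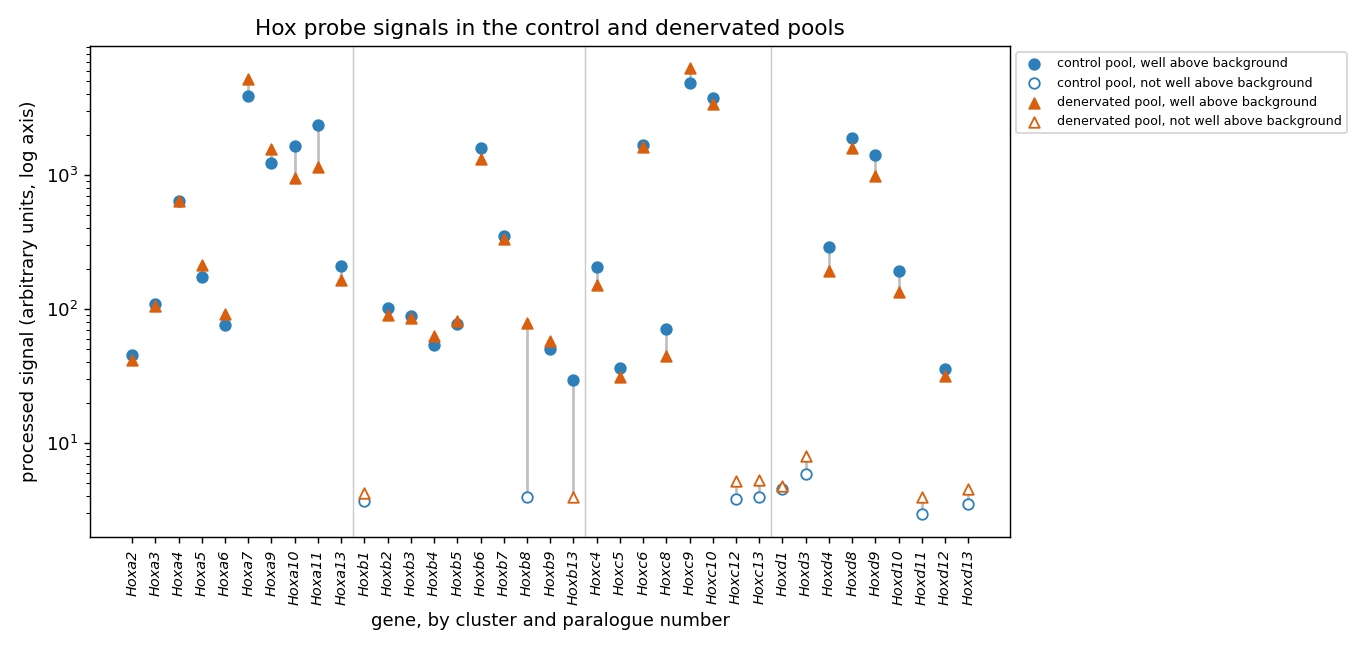
Processed signal (arbitrary units, log axis) of 37 Hox genes in the control pool (circles) and the denervated pool (triangles), 1 array each, in order of cluster and paralogue number. Open symbols were not well above background, grey lines join the signals of a gene, and only the pair within a gene is comparable; Hoxb8 and Hoxb13 have 1 open and 1 filled symbol.

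All 29 measured Hox genes had a log2 difference below 0 on this scale, where 57.2% of all 15581 measured genes did. In Hoxa5, Hoxa6, Hoxa7, Hoxa9, Hoxb4, Hoxb9 and Hoxc9 the difference was smaller than its technical error. Their median was -0.59, against -0.11 for all measured genes, and their differences ran from -1.46 to -0.01. The interquartile range of the Hox differences was 0.40, narrower than the 0.84 of all genes. Hoxa10, Hoxa11, Hoxc8 and Hoxd4 were at least 2-fold lower in the denervated pool, 4 of 29, where 8.53% of all measured genes were. No measured Hox gene was 2-fold or more higher, where 6.96% of all measured genes were.

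How far the Hox genes lie below 0 depends on the scaling. The spike-in controls, RNAs added at labelling and taken here as equal in both pools, place every gene 0.40 higher on the log2 scale. Scaled to them, 21 of the 29 Hox genes lay below 0, where 32.1% of all measured genes did, and the Hox median was -0.19 against 0.29 for all genes. Hoxa11 was then the only Hox gene at least 2-fold lower, where 4.13% of all measured genes were. None was at least 2-fold higher on that scale, where 14.6% of all measured genes were. Centring by a curve that follows signal left 25 of 29 Hox genes below 0, where 51.4% of all measured genes were, with a Hox median of -0.40 against -0.02. The Hox median was thus below that of all genes under the 3 scalings, while its distance from 0 changed.

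The Hox median lay below that of all genes in each range of signal that held Hox genes. Among genes with a mean signal of 1000 to 10000, the 10 Hox genes had a median of -0.63 and all 5331 genes had a median near 0, at -0.0049. From 50 to 200, the 12 Hox genes had a median of -0.48 and all genes -0.28. In all, 25 of the 29 Hox genes lay below the median of the genes in their own range of signal.

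**Figure D2:**
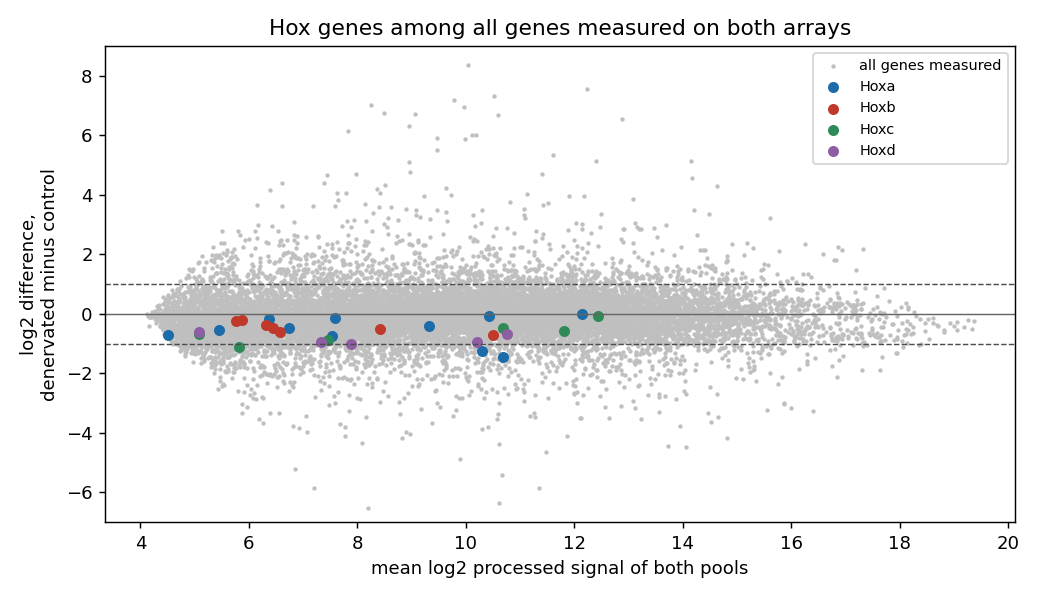
Log2 difference, denervated minus control, against the mean log2 processed signal of both pools for all 15581 measured genes (grey) and the 29 measured Hox genes (coloured by cluster), with dashed lines at 2-fold. The Hox points run from -1.46 to -0.01 and lie along the lower side of the grey cloud over most of the signal range.

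Hoxa11, which patterns the middle segment of the limb together with Hoxd11, had signals of 2359 (control) and 1156 (denervated), the order used in the sentences that follow. Its log2 difference was -1.46 ± 0.20, 2.75-fold lower, the lowest of the measured Hox genes under the 75th percentile scaling. It stayed at least 2-fold lower in 13 of 13 alternative settings, with -1.06 on the spike-in scale. The probe lies at chr6:52171691-52171750 on the minus strand of build mm8, and its place among the gene's exons was not analysed here. Hoxd11 itself was not well above background in either pool.

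Hoxa10, which patterns the upper limb segment and the lumbar spine, had signals of 1657 and 946. The log2 difference was -1.24 ± 0.20, 2.36-fold lower, and it passed 2-fold in 11 of 13 alternative settings. Its probe lies at chr6:52161240-52161299 in mm8, on the minus strand. Hoxa10 and Hoxa11 differed from each other by 0.22 ± 0.29, within technical error. Hoxa13, at the end of the cluster and a patterning gene of hand, foot and urogenital tract, had signals of 208 and 166, a difference of -0.76 ± 0.21, and its other probe gave -0.72.

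The next genes of the cluster gave another picture. Hoxa9, a group 9 gene also known from blood progenitors, had signals of 1222 and 1557 and a log2 difference of -0.08 ± 0.20. Hoxa7 had signals of 3919 and 5233 and a difference of -0.01 ± 0.20, the highest of the measured Hox genes. The Hoxa9 difference exceeded that of Hoxa10 by 1.16 ± 0.29, and this gap ranged from 1.09 to 1.18 over 14 settings. That of Hoxa7 exceeded that of Hoxa11 by 1.45 ± 0.29, with a range from 1.30 to 1.45. A gap within the arrays does not depend on a common scaling factor, and both gaps were larger than the technical error.

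The anterior and middle Hoxa genes lay between these extremes. Hoxa5, which in the embryo is needed for lung and neck structures, had signals of 174 and 214 and a difference of -0.13 ± 0.21. Hoxa6 had signals of 75.8 and 91.1 and a difference of -0.17 ± 0.23. Hoxa5, Hoxa6 and Hoxa7 thus all had higher unscaled signals in the denervated pool, and all had positive differences on the spike-in scale.

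Hoxa2, which specifies the second branchial arch, had 45.3 and 41.7 and a difference of -0.55 ± 0.27. Hoxa3 had 109 and 106, with -0.47 at this probe and -0.27 at its other probe. Hoxa4 had 636 and 645, with -0.41 and -0.55 at its probes. The 3 middle Hoxa genes had a median of -0.13, and the 4 posterior genes ran from -1.46 to -0.08.

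**Figure D3:**
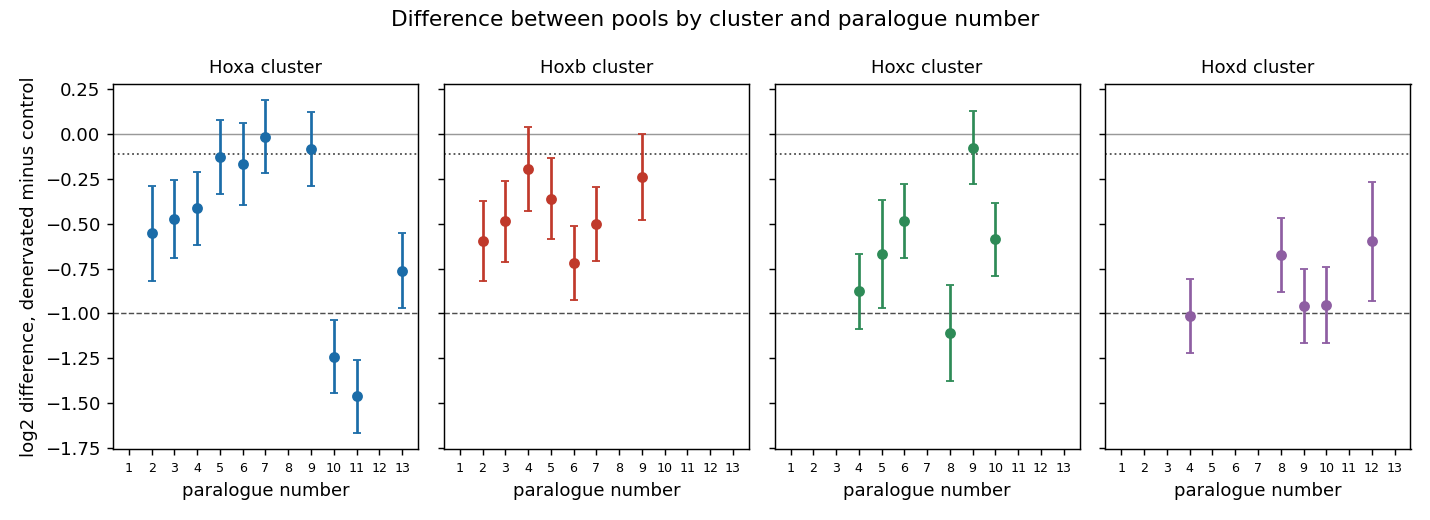
Log2 difference, denervated minus control, against paralogue number for 28 measured Hox genes in the 4 clusters; bars are the technical error of 1 array per pool, the dotted line is the median of all measured genes and the dashed line is 2-fold lower. Hoxa10 at -1.24 and Hoxa11 at -1.46 stand below Hoxa9 at -0.08 and Hoxa7 at -0.01, and the Hoxd genes lie between -1.01 and -0.60.

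In the Hoxd cluster, every measured gene was lower in the denervated pool under the 75th percentile, spike-in and signal-following scalings, with a median of -0.95 over 5 genes. Hoxd4, the anterior member, had signals of 290 and 194 and a difference of -1.01 ± 0.21, 2.02-fold lower. It lay at the 2-fold threshold and passed it in 6 of 13 alternative settings. Hoxd9 had signals of 1410 and 978, with -0.96 ± 0.20 at this probe and -0.87 at its other probe. Hoxd10, which with its paralogues patterns hindlimb and lumbar motor neurons, had signals of 192 and 134 and a difference of -0.95 ± 0.21. Hoxd9 and Hoxd10 lay just short of 2-fold, 1.94-fold lower each.

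The remaining Hoxd genes had smaller differences. Hoxd8 had signals of 1875 and 1586 and a difference of -0.67 ± 0.20. Hoxd12, a gene of the limb tip in the embryo, had signals of 35.7 and 31.8 and a difference of -0.60 ± 0.33. On the spike-in scale the Hoxd median was -0.55, while the medians of Hoxa, Hoxb and Hoxc were -0.07, -0.09 and -0.23.

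The Hoxc cluster was uneven. Hoxc8, a thoracic patterning gene, had signals of 71.5 and 44.6 and a difference of -1.11 ± 0.27, 2.16-fold lower. It passed 2-fold in 7 of 12 alternative settings, and normexp background correction with quantile scaling gave -0.32, where quantile scaling alone gave -0.91. A stricter filter on dim probes, asking for 4 times the lowest detected signal of each array, left Hoxc8 out. Hoxc9, the next gene in the cluster, had signals of 4904 and 6275 and a difference of -0.08 ± 0.20. The gap between Hoxc9 and Hoxc8 was 1.03 ± 0.34 and ranged from 0.19 to 1.09 over 13 settings, with the lowest value under normexp with quantile scaling. Background correction was not changed alone.

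Hoxc10, a posterior gene used more in the hindlimb than in the forelimb, had signals of 3769 and 3387. Its difference was -0.59 ± 0.20, and its other probe gave -0.57. Hoxc6 had signals of 1667 and 1607 and a difference of -0.48 ± 0.20. Hoxc4 had signals of 206 and 151 and a difference of -0.88 ± 0.21, and Hoxc5 had 36.5 and 31.0 and a difference of -0.67 ± 0.30. The median over the 6 measured Hoxc genes was -0.63.

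In the Hoxb cluster none of the 7 measured genes was 2-fold lower, and the median was -0.49. Hoxb6 had the lowest value there, with signals of 1604 and 1315 and a difference of -0.72 ± 0.20, and its other probe gave -0.42. Hoxb2 had signals of 101 and 90.4 and a difference of -0.60 ± 0.22 at its brighter probe, which the files place on the minus strand, opposite to the other Hoxb probes. That probe is the one used in counts and medians, and the Hoxb2 probe on the plus strand, with 43.8 and 50.8, gave -0.22. Hoxb3 had 88.4 and 85.1, with -0.49 ± 0.23 and -0.48. These genes, anterior ones among them, act in hindbrain and vertebral patterning in the embryo.

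Hoxb7 had signals of 350 and 334 and a difference of -0.50 ± 0.21. Hoxb5 had signals of 77.5 and 81.4 and a difference of -0.36 ± 0.23, and Hoxb4, also known from blood stem cells, had 53.6 and 63.2 and a difference of -0.19 ± 0.24. Hoxb9 could not be given 1 value. Its brighter probe had signals of 50.6 and 57.9, a difference of -0.24 ± 0.24, while its other probe had 52.7 and 31.1, a difference of -1.19 ± 0.31.

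Hoxb8 and Hoxb13 were each above background in 1 pool. Hoxb8, a middle gene of the cluster, had a probe at 78.8 in the denervated pool and at 3.96, not well above background, in the control pool, at least 4.02-fold higher. For such a bound the dim pool was given its array's lowest detected signal, or the probe's own reading where that was greater. Its second probe was not well above background in either pool, with 3.40 and 4.33, so the gene's probes disagree. Among all genes, 1.9% were above background in the denervated pool only, and 0.786% had such a bound of at least 2-fold.

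Hoxb13, a gene of the tail and prostate, had signals of 29.3 (control) and 3.95 (denervated, not well above background), at least 2.21-fold lower. Among all genes, 4.54% were above background in the control pool only, and 1.51% had a bound of at least 2-fold. With 1 probe for Hoxb13 and signals near the background, no second measurement bears on it.

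Across clusters, paralogues of one number did not share one value. In group 9, Hoxa9, Hoxb9 and Hoxc9 had differences of -0.08, -0.24 and -0.08, and Hoxd9 had -0.96. The Hoxa9 difference exceeded that of Hoxd9 by 0.88 ± 0.29, with a range from 0.79 to 0.89 over 14 settings. The gap of Hoxc9 to Hoxd9 was also 0.88 ± 0.29. That of Hoxb9 to Hoxd9 was 0.72 ± 0.32 at the brighter Hoxb9 probe and 0.20 with the mean of all measured probes. The other Hoxb9 probe, at -1.19, lay below both Hoxd9 probes. In group 10, the only posterior group measured at every gene on the array besides group 9, Hoxa10, Hoxc10 and Hoxd10 had -1.24, -0.59 and -0.95, a median of -0.95. The Hoxc10 difference exceeded that of Hoxa10 by 0.65 ± 0.29.

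Group 4, whose 4 genes were all measured, ran from -1.01 in Hoxd4 and -0.88 in Hoxc4 to -0.41 in Hoxa4 and -0.19 in Hoxb4. The Hoxb4 difference exceeded that of Hoxd4 by 0.82 ± 0.31. In group 6, Hoxa6, Hoxb6 and Hoxc6 gave -0.17, -0.72 and -0.48. Over all 29 genes the Spearman correlation of paralogue number with the difference was -0.22, a description over genes that share the same 2 arrays. Within clusters it was -0.23 in Hoxa, 0.14 in Hoxb, 0.43 in Hoxc and 0.70 in Hoxd, so the sign was not shared. The medians were -0.55 for groups 1 to 4, -0.49 for groups 5 to 8 and -0.68 for groups 9 to 13.

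Where 2 probes of a Hox gene were measured, they mostly gave like values. In 9 such genes both probes lay below 0, the median distance between them was 0.14, and 6 of the distances were within the combined technical error. The distance was 0.95 for Hoxb9 and at most 0.38 for the others, in Hoxb2, whose probes lie on opposite strands. Hoxa10, Hoxa11, Hoxc8 and Hoxd4, the genes past 2-fold, were each read by a single probe.

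**Figure D4:**
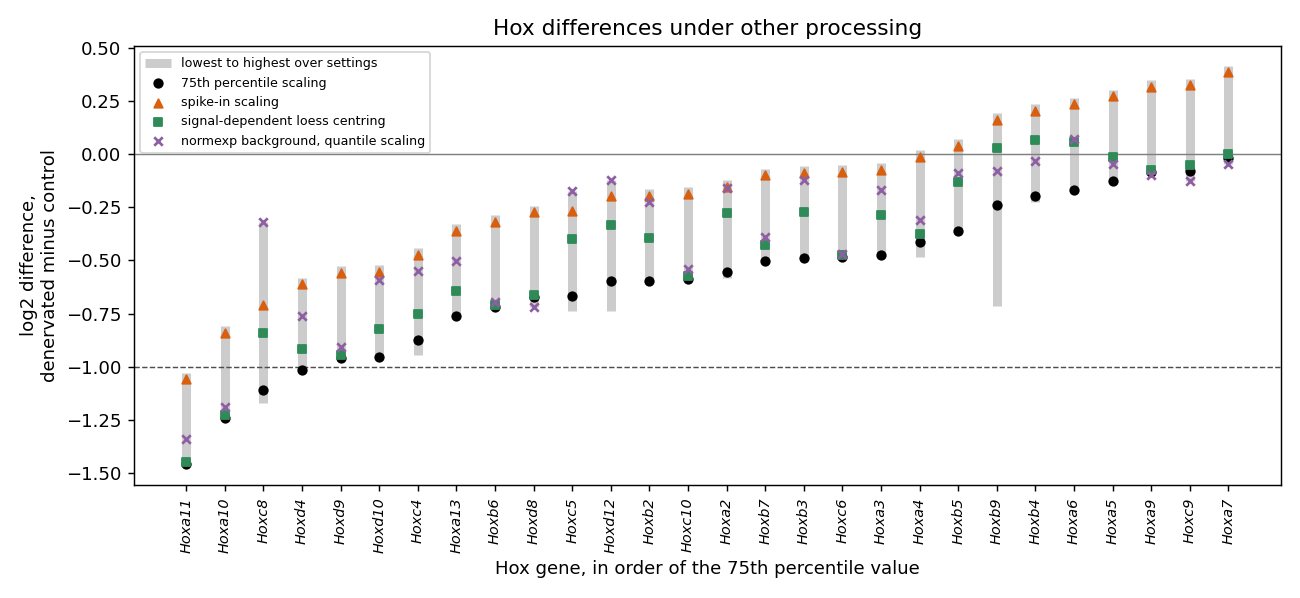
Log2 difference of 28 measured Hox genes under the 75th percentile scaling (black), spike-in scaling (triangles), signal-following loess centring (squares) and normexp background correction with quantile scaling (crosses); grey bars run from the lowest to the highest value over all settings that gave one, and the dashed line is 2-fold lower. Hoxa11 stays below the line at each marked setting, Hoxc8 moves from -1.11 to -0.32, and the genes at the right end, Hoxa7 to Hoxb5, lie above 0 on the spike-in scale.

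Transcripts other than Hox genes inside the clusters were read by 9 probes, of which 4 were measured. The probe for 1700109F18Rik, named Hoxd3os1 in RefSeq, reads the strand opposite to the Hoxd genes. It had signals of 453 and 178 and a log2 difference of -1.78 ± 0.21, 3.44-fold lower, and -1.38 on the spike-in scale. A second probe for it was not well above background on either array. The 9530018H14Rik probe, on the strand of the Hoxa genes near Hoxa13, had 68.5 and 43.4 and a difference of -1.09 ± 0.26. The probe for 5730446D14Rik, named Hoxaas2 in RefSeq, reads the strand opposite to the Hoxa genes and gave 0.14 ± 0.37. The probe for 2700086A05Rik, named Hoxaas3 in RefSeq, lies on the strand of the Hoxa genes in the files and gave -0.44 ± 0.21.

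Genes that flank the clusters did not lie as low. Of 41 measured probes within 300 kb beyond the Hox probes, 24 were below 0, where 57.2% of all measured genes were, with a median of -0.26. This count is over probes, several for some genes, while the shares of all measured genes take 1 probe per gene. Beside 8.53% lower and 6.96% higher among all measured genes, past 2-fold lay 1 lower probe and 2 higher ones, in Skap2 and Cbx5. The lower one, AK084656 beyond Hoxc4, was chosen after its values were seen, with signals of 3131 and 262 and a difference of -4.01 ± 0.21. The Cbx5 probe gave 1.27 ± 0.20, and the brightest of that gene's 3 measured probes gave 0.52. A separate list of neighbouring genes was made by name. Some of its genes, Cbx1, Tax1bp1 and Nfe2l1 among them, had no probe within 300 kb. Of the 21 listed neighbouring genes on the array, 19 were measured, with a median of 0.06, and 1 gene past 2-fold, which was higher. Skap2, a signalling adaptor beside the Hoxa cluster, was higher by 1.18 ± 0.20, with 0.44 at its other probe. Evx2, a homeobox gene at the posterior end of the Hoxd cluster, had signals of 340 and 291 and a difference of -0.66 ± 0.21. Cbx1, with 0.0041 ± 0.20, was the gene of the named list nearest to 0.

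For the lists that follow, the shares past 2-fold over all measured genes are 8.53% lower and 6.96% higher. Hox cofactors of the Pbx, Meis and Pknox families, listed together with Gmnn, had a median of -0.17 over 10 of 10 genes measured. Of these, 1 gene, which was higher, passed 2-fold. That gene was Pbx3, with signals of 284 and 837 and a difference of 1.12 ± 0.20, although its other measured probe gave 0.08. Pbx2, another partner, had 0.03 ± 0.20. Pknox2 had the lowest value, -0.68 ± 0.20.

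Of 28 names of Polycomb and trithorax regulators on the array, 26 were measured. Utx, an older name of Kdm6a, was counted apart from it and was not measured. The median was 0.08, and 1 gene, which was lower, passed 2-fold. Jarid2, a Polycomb cofactor, had signals of 1975 and 1265 and a difference of -1.07 ± 0.20, and its 3 measured probes ranged from -1.07 to -0.46. Cbx7, which reads the Polycomb mark, was the member nearest to 0, at 0.0050 ± 0.20. The alternative catalytic subunits of the Polycomb complex that writes this mark differed in direction, Ezh2 with -0.71 ± 0.21 and Ezh1 with 0.48 ± 0.20. On the spike-in scale the list's median was 0.49 and that of the cofactor list with Gmnn was 0.23.

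Limb position factors had a median of -0.36 over 19 of 24 genes, with 2 at least 2-fold lower and 1 higher. Lbx1, a factor of migrating limb muscle precursors, had signals of 1148 and 745 and a difference of -1.06 ± 0.20. Emx2 had 134 and 86.9 and a difference of -1.05 ± 0.22. Prrx2, a gene of limb mesenchyme, had 287 and 856 and a difference of 1.15 ± 0.20. Isl1, a gene of early hindlimb bud, was nearest to 0 with 0.07 ± 0.39. On the spike-in scale neither Lbx1 nor Emx2 remained 2-fold lower, and the list's median was 0.04.

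Of 17 retinoid and CTCF genes, which act on Hox clusters in the embryo, 11 were measured, with a median of -0.37, and past 2-fold lay 2 higher and 2 lower genes. Rxrg, a nuclear receptor of muscle, had signals of 35176 and 7792 and a difference of -2.61 ± 0.20. Among enzymes that make retinoic acid, Aldh1a1 had a difference of -2.38 ± 0.20, Aldh1a2 of 1.93 ± 0.20 and Aldh1a3 of 2.43 ± 0.21. The other measured Aldh1a3 probe gave 0.95, short of 2-fold. Cyp26b1, which degrades retinoic acid, was nearest to 0 with -0.29 ± 0.20, and Ctcf, a boundary protein of the clusters, had -0.39 ± 0.20. Rxrg, Aldh1a1, Aldh1a2 and, at its brighter probe, Aldh1a3 thus had larger differences than any of the 29 measured Hox genes, in both directions. The other measured genes of the list did not.

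**Figure D5:**
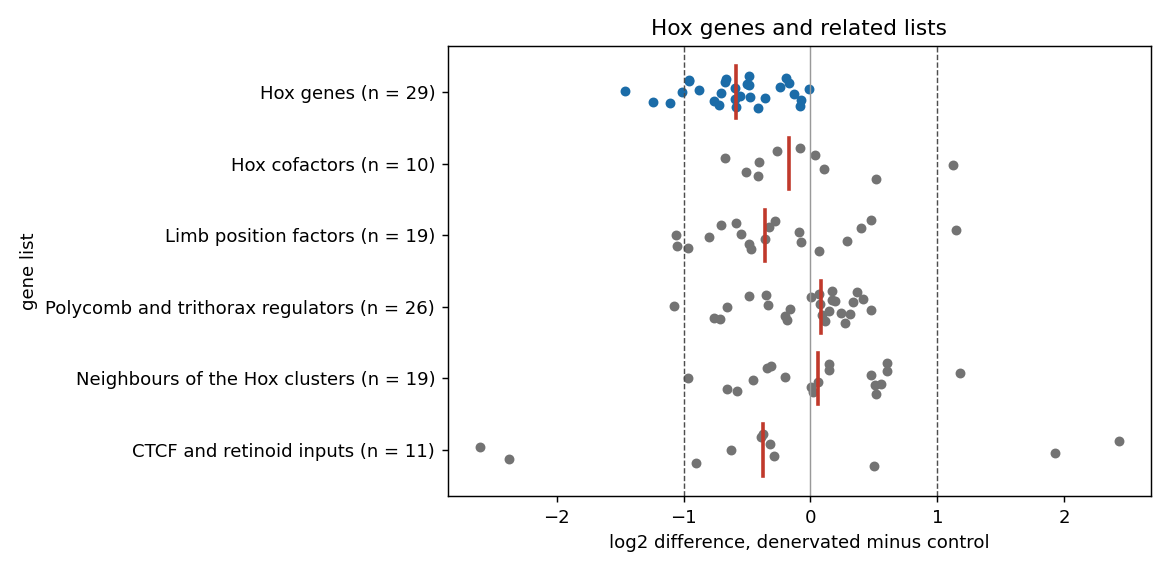
Log2 difference, denervated minus control, of the 29 measured Hox genes (blue) and of the measured members of 5 related lists (grey); 1 point is 1 gene, red bars are medians and dashed lines are 2-fold. The Hox points lie on the left of 0 with a median of -0.59, and the other lists have medians from -0.37 to 0.08 with points on both sides.

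Other homeobox and paired-box families, found by name, held 88 genes on the array, of which 44 were measured, and 34 were above background in neither pool. Their median was -0.33, with 30 below 0, where 57.2% of all measured genes were, and past 2-fold lay 4 higher and 3 lower genes. Tgif1, a repressor in TGF-beta signalling, was higher by 3.58 ± 0.21, Alx4 by 1.87 ± 0.22 and Irx1 by 1.49 ± 0.29, beside Prrx2. The other measured Alx4 probe gave 0.59, short of 2-fold. Six2 had a difference of -2.14 ± 0.21 and Nkx1-2 of -1.87 ± 0.30. Nkx6-2 was nearest to 0 with 0.02 ± 0.37. The Hox genes thus had the lower median of these homeobox groups and the narrower span.

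Signals of cell type markers also differed between the pools. Of 7 macrophage markers, 6 were higher by 2-fold or more after denervation, where 6.96% of all measured genes were, with a median of 1.57. Their summed unscaled signals were 14026 (control) and 54489 (denervated), of which Lyz2 gave 12517 and 47253. Fibroblast markers had a median of 0.18 over 8 of 9 genes, and Tcf21 was above background in neither pool. Their summed signals were 174036 and 266355, of which Dcn gave 118645 and 178171. Satellite cell markers had a median of -0.39 over 4 of 5 genes, and Myf5 was above background in neither pool. Their summed signals were 3945 and 8862, of which Cdh15 gave 3294 and 8245. Cdh15 had a difference of 0.89 ± 0.20, and the other measured ones lay below 0. Endothelial markers had a median of -0.56 with summed signals of 12717 and 10173, and muscle fibre markers had -0.37. Smooth muscle markers had -0.67 with 320309 and 294998, of which Acta2 gave 302075 and 279691. Schwann cell, adipocyte, skin and lymphocyte markers had medians of 0.62, -0.80, -0.57 and -0.55. The part of such shifts in marker signal in the Hox differences was not tested.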

How the data were processed

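RNA of 6 control and 6 denervated mice, pooled per group, was hybridised to 1 Agilent 1-colour array each, per the labels. Groups follow the source label, and both arrays lay on 1 slide and in 1 scan. An effect of the slide position and an effect of the group cannot be told apart. Per the submitters' processing notes, the software behind the deposited intensity values was Agilent Feature Extraction 9.5. Per the file headers, these intensities are background-subtracted and detrended within each array. A deposited table of whole-number values is treated here as a score. Set against the intensities, this deposited score is the processed intensity with each array's 75th percentile over 45018 spots set to 100 (the ratio varied by 0.126% and 0.127% among brighter spots), so scale, centring and direction are known. Its column medians were 10 and 9. No sample column was left unused.

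Spots marked as non-uniform or outlying (87 control, 81 denervated, of 43379) were left out and spots of a probe averaged. Values were log2 processed signals minus the array's 75th percentile. The lowest signal well above background was 14.5 (control) and 17.9 (denervated), and 70.9% and 68.4% of probes passed. A gene took its measured probe of highest mean signal. Of the probes, 23372 were named through RefSeq accessions, and other names can be old. With 1 array per group no p-value was computed, and the number of arrays limits the precision. Called means at least 2-fold. Values of 1 Hox gene and 1 other homeobox gene are not reported here, though counts and medians include them. The other Hox genes are all named. From other lists, the genes past 2-fold and those with the largest and smallest difference are named, and any others were chosen after their values were seen. The members, lists and settings were chosen with earlier results of these data known. In all, 13 alternatives were run, with limma 3.58.1 in R 4.3.3 for normexp and quantile scaling, and the counting of calls was tested on simulated data.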

Additional observations from a re-analysis of the deposited data

How the results depend on the processing

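Over 13 alternatives, 1 choice was changed at a time, except that normexp background correction was combined with quantile scaling, so its own effect was not separated. The count of Hox genes at least 2-fold lower was 4 and became 2 with quantile scaling, with normexp and quantile scaling, and with signal-following loess centring, and 1 with spike-in scaling and with no scaling. The count at least 2-fold higher was 0 and became 1 without a filter on dim probes, through Hoxb8. The Hox median of -0.59 became -0.19 with spike-in scaling, -0.15 with no scaling and -0.22 with normexp and quantile scaling, where quantile scaling alone gave -0.40. Under the other alternatives these counts stayed within 1.5 times and the median moved by less than the technical error. The number of measured Hox genes was 29 and became 22 under a stricter filter on dim probes, and it has no value without that filter. Spike-in scaling moved the split over all genes from 1084 higher and 1329 lower to 2269 higher and 644 lower. No paired analysis was possible because each group has 1 array, and for the same reason no array could be left out. Signals near the background limit Hoxb13 and the control value of Hoxb8. They also limit Hoxa2, Hoxb4, Hoxb9, Hoxc5, Hoxc8 and Hoxd12, which the stricter filter left out.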

Other observations

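Beside the Hoxc cluster, the probe for the transcript AF216290 had signals of 7.86 (control, not well above background) and 86.9 (denervated), at least 4.44-fold higher. Among the 88 other homeobox and paired-box genes found by name, 8 were above background in the control pool only and 2, Pax6 and Irx2, in the denervated pool only. Over all genes, these shares were 4.54% and 1.9%. Pax6, a gene of eye and brain development, had signals of 2.90 (control) and 62.6 (denervated), at least 3.20-fold higher. These were chosen after their values were seen, and each is 1 array per pool.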
